A study of Mus musculus with 12 samples.

Results

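The aldehyde dehydrogenases oxidise aldehydes to carboxylic acids with NAD or NADP, and in the liver they clear acetaldehyde, lipid aldehydes and the semialdehydes that arise when amino acids are broken down. The members described here were 10 genes of this family: *Aldh1a1*, *Aldh1a7*, *Aldh1b1*, *Aldh1l1*, *Aldh2*, *Aldh3a2*, *Aldh4a1*, *Aldh6a1*, *Aldh7a1* and *Aldh8a1*. They were taken at every probe that carries one of these symbols and that reached a detection p-value of at most 0.05 on at least 1 array, so the probes were chosen by their detection p-values and not by the comparison of the groups, though the family was picked with earlier results known. By this rule 15 probes of 9 genes were found among 20561 kept probes and 10838 named genes. No annotated probe carried the symbol of *Aldh2*, the mitochondrial enzyme of acetaldehyde oxidation, so its signal was not examined here. All 15 probes that carried a member symbol passed the detection rule, 11 of them on all 12 arrays. That all passed is no result, since symbols were available only for probes that the authors had already filtered on detection. The probe closest to failing, ILMN_1258695 of *Aldh3a2*, was detected on 0 AAV-Cre arrays and 1 AAV-GFP array.

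Hepatocytes came from mice of mixed C57BL/6 and 129Sv background, aged 2.5 to 4.5 months, in which both copies of *Gata4* and of *Gata6* were floxed in all animals, controls included. In the AAV-Cre group (6 samples) the animals had received adeno-associated virus serotype 8 with Cre recombinase under the hepatocyte-active Tbg promoter, and in the AAV-GFP group (6 samples) the same virus type with green fluorescent protein, in both cases by vein 2 weeks earlier. The cells were a Percoll gradient fraction enriched for hepatocytes, and each sample was hybridised to 1 Illumina MouseWG-6 v2 array. The comparison asked which transcripts depend on the pair of GATA factors in adult hepatocytes.

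On these arrays the check of the targeted genes went against the labels at *Gata6* and could not be read at *Gata4*. *Gata6* (ILMN_2868133) averaged 11.59 ± 0.37 on the arrays labelled AAV-Cre and 9.88 ± 0.23 on the AAV-GFP arrays (log2 signal, SD, n = 6 each), a difference of 1.71 with limma adjusted p = 3.77e-04, and *Gata4* (ILMN_2817903) was at background, detected on 1 AAV-Cre array and 0 AAV-GFP arrays. The sources used here do not say whether these probes lie in the excised parts, and a probe outside them checks nothing, so every direction below is only that of the arrays labelled AAV-Cre relative to those labelled AAV-GFP. The arrays had between 14318 and 16381 detected probes (31.6 to 36.2%). The hepatocyte markers *Hnf4a*, *Serpinc1*, *F10* and *Alb* were detected on all 12 arrays, with overlapping groups and differences of 0.16, 0.07, 0.01 and -0.02. *Tat* and *Fgb* were near background. *Apoa2*, an apolipoprotein of high-density lipoprotein, was 11.87 ± 0.10 in AAV-Cre and 12.21 ± 0.10 in AAV-GFP with groups that did not overlap (difference -0.34, limma adjusted p = 0.0970). The summed signal of the 7 measured hepatocyte markers was 48067 to 59583 on AAV-Cre arrays and 49530 to 56446 on AAV-GFP arrays. This sum rests mostly on the brightest, *F10* (14.70 in AAV-Cre and 14.69 in AAV-GFP) and *Hnf4a* (14.06 and 13.91). The *Alb* probe averaged only 9.63 in AAV-Cre and 9.65 in AAV-GFP. The library labelled AAV-Cre replicate 3 stood apart by its sex-linked transcripts, with *Xist* (ILMN_2475156) at 13.31 and *Eif2s3y* (ILMN_1241001) at 7.75, whereas *Xist* was at background and *Eif2s3y* was 11.53 or higher on the other 11 arrays. The Y-linked *Kdm5d* was also undetected on AAV-Cre replicate 3 (7.98). By these transcripts this sample reads as female and the other 11 as male, although the labels give no sex. Sex was thus not balanced between the groups, and its part in the differences was not tested. For some members and lists the value without AAV-Cre replicate 3 is also given.

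Aldehyde dehydrogenases 1a1 and 1a7 are cytosolic enzymes encoded side by side. *Aldh1a1* encodes the enzyme that turns retinal into retinoic acid, and *Aldh1a7* is its close copy in rodents. GATA factors bind short DNA elements with the core GATA, and the classical form is a hexamer that reads AGATAA or begins with T instead, as TGATAA does, or ends with G instead, as AGATAG does, or has both changes, as TGATAG does. All 4 were searched on both strands.

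The sequences upstream of *Aldh1a7*, *Aldh1a1* and *Aldh1b1* are shown because these 3 genes had the largest negative differences among the members, and because the first 2 are nearly the same next to their start sites. Each is the 250 bases before an annotated start site in RefSeq on GRCm38.p6, written 5′ to 3′ on the gene's own strand. Capitals mark a GATA hexamer, and in *Aldh1a7* the 6 bases that align with the start-proximal hexamer of *Aldh1a1*. *Aldh1a7* lies at chr19:20727557-20727806 (minus strand), *Aldh1a1* has starts after chr19:20601718-20601967 and chr19:20492333-20492582 (both plus strand), and *Aldh1b1* after chr4:45798772-45799021 (plus strand).
Aldh1a7: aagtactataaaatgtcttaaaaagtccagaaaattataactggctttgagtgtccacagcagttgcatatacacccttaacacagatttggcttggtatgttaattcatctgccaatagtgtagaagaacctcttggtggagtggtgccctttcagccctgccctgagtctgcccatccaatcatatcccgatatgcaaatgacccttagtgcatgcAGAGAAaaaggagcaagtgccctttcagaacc
Aldh1a1, nearer start: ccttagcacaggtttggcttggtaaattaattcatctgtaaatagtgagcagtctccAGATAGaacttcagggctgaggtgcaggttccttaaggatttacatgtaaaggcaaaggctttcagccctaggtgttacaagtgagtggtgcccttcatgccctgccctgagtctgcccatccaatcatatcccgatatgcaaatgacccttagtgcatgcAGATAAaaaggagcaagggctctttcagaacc
Aldh1a1, farther start: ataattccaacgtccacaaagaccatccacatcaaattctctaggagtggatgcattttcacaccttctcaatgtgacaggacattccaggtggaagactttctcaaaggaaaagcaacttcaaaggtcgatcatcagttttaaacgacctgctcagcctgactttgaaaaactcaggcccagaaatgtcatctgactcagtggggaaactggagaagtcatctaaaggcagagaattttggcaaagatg
Aldh1b1: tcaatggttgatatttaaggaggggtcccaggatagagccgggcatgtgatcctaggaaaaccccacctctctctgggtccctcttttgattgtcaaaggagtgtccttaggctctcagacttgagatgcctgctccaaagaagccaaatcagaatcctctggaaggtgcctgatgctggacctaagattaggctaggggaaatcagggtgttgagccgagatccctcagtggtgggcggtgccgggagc

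On chromosome 19 *Aldh1a1* and *Aldh1a7* are neighbouring protein-coding genes in the RefSeq annotation. The window of *Aldh1a7* and that of the nearer *Aldh1a1* start were identical at 160 of 175 aligned bases (91.4%), against 64.2% for the farther start. The nearer *Aldh1a1* window held 2 hexamers, whose first bases lie 193 and 32 bases before the start. At the one closer to the start, *Aldh1a7* differs by a single substitution, T222G, with positions counted from 1 at the 5′ end of the *Aldh1a1* window, so that AGATAA in *Aldh1a1* stands opposite AGAGAA in *Aldh1a7*. The last bases of this hexamer overlap the run ATAAAA, a string of the TATA box kind. The other hexamer, AGATAG, has no complete counterpart in the alignment. No hexamer was found in the windows of *Aldh1a7*, *Aldh1b1* or the farther *Aldh1a1* start, which says only that these letters are not in those windows. The search of family windows left out chromosome 18, and with it the member *Aldh7a1*. Among the members searched, 8 genes had 10 windows, and 2 windows held a hexamer, the second belonging to *Aldh6a1*. Of all 32851 windows of this length, taken without this restriction, 26.5% held one.

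Of the 15 member probes, 0 were higher, 1 was lower and 14 did not pass in the arrays labelled AAV-Cre at an adjusted p under 0.05, where limma was fitted to all kept probes with Benjamini-Hochberg adjustment. The probe that passed was that of *Aldh1a7*. Among all kept probes 0.141% were called lower and 0.0243% higher. The median difference of the 15 probes was -0.04 on the log2 scale, beside 0.00 for all kept probes, with 6 above 0 and 9 below (49% of all kept probes were below). At the looser adjusted p under 0.25 the count of member probes was still 1 (0.54% of all kept probes), and at an unadjusted p under 0.05 it was 2 (5.05%), the second being *Aldh1b1*. At 1 of the 15 probes every AAV-Cre array was below every AAV-GFP array, which held for 0.34% of all kept probes, and for 0.501% in either direction.

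**Figure D1:**
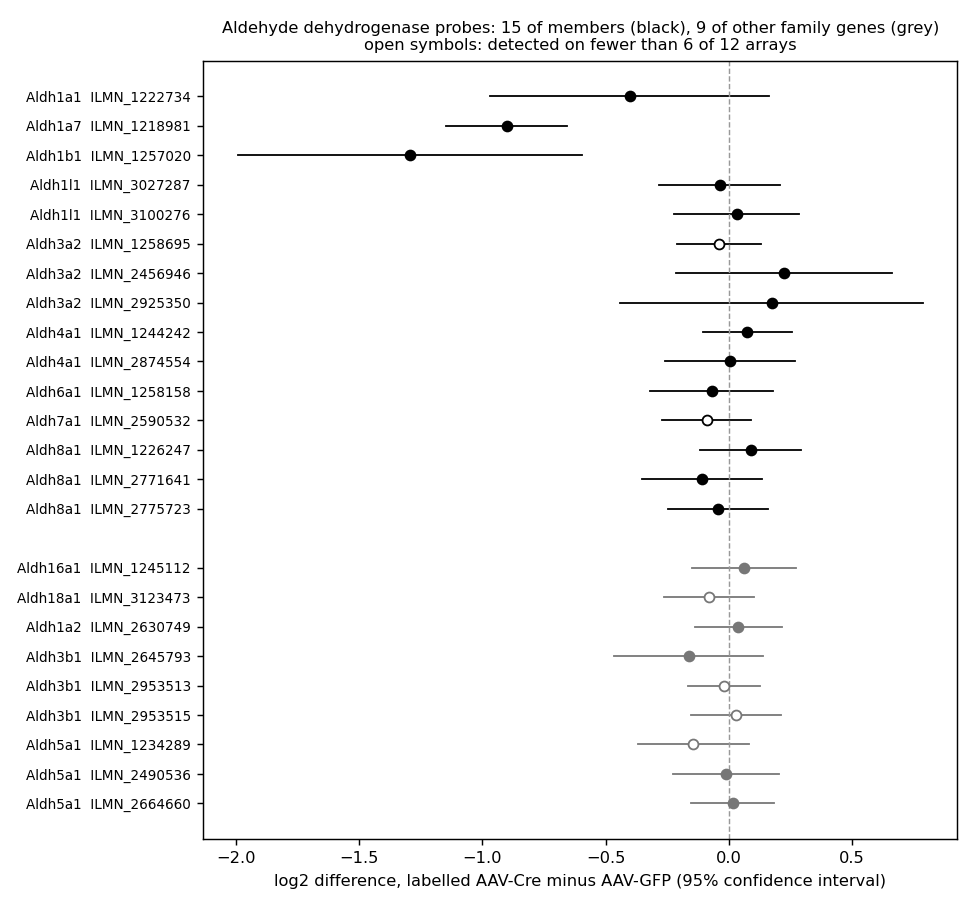
Log2 difference of each aldehyde dehydrogenase probe, arrays labelled AAV-Cre minus AAV-GFP (x axis, points), with its 95% confidence interval from limma (lines, 6 arrays a group); members are black, other family genes grey, and open points were detected on fewer than 6 arrays. *Aldh1a7* and *Aldh1b1* have intervals below 0, and the intervals of the other 13 member probes include 0.

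*Aldh1a7* was lower on every array labelled AAV-Cre. Its log2 signal at ILMN_1218981 had a lowest value of 11.84, a median of 12.32 and a highest of 12.61 on the AAV-Cre arrays, against 12.95, 13.20 and 13.37 on the AAV-GFP arrays. The groups did not overlap, and the gap lay between AAV-Cre replicate 1 and AAV-GFP replicate 2. The means were 12.29 ± 0.25 in AAV-Cre and 13.19 ± 0.16 in AAV-GFP (SD, n = 6 each), a difference of -0.90 (SE 0.114, 95% interval -1.15 to -0.66) or 1.87-fold lower, with limma adjusted p = 0.00434. By p-value it ranked 9 among all kept probes. The exact two-sided permutation test gave p = 0.00216, the smallest that 6 arrays against 6 can give.

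AAV-Cre replicate 3 had the lowest *Aldh1a7* signal of all arrays, and without it the difference was -0.81 (limma adjusted p = 0.00236). In the 12 fits that each left out 1 array *Aldh1a7* was called every time, with differences between -0.97 and -0.81. The call depended on the scaling: with median scaling in place of quantile normalization the difference was -0.84 and the adjusted p = 0.0611. In RNA from a cell preparation, fewer cells with a transcript and less of it per cell cannot be told apart.

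*Aldh1a1*, the neighbouring copy, had a difference smaller than the spread among the AAV-Cre arrays. At ILMN_1222734 its log2 signal ran from 12.71 through a median of 14.38 to 14.60 within the AAV-Cre group, and from 14.09 through 14.56 to 14.80 within the AAV-GFP group. The groups overlapped, and the array far below the rest was AAV-Cre replicate 3. Means were 14.11 ± 0.70 in AAV-Cre and 14.51 ± 0.24 in AAV-GFP (SD, n = 6 each), a difference of -0.40 (SE 0.263, 95% interval -0.97 to 0.16, exact permutation p = 0.171). Without that array the difference was -0.12. As the interval reaches -0.97, a fall in *Aldh1a1* as large as that of *Aldh1a7* is within it.

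The changes of the 2 neighbours were therefore compared directly, as a test added after the data were seen. Within each array the log2 signal of *Aldh1a1* was taken from that of *Aldh1a7*, and this quantity differed by -0.50, AAV-Cre minus AAV-GFP (exact two-sided permutation p = 0.0519, 6 arrays against 6). With AAV-Cre replicate 3 left out the difference was -0.69 (exact permutation p = 0.00216, the smallest possible). The difference between the 2 genes thus rested on which arrays were included. Whether the *Aldh1a7* probe also reads *Aldh1a1* transcripts, or the reverse, was not tested, since probe sequences were not used here.

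*Aldh1b1* encodes a mitochondrial enzyme that oxidises acetaldehyde and also retinal. It had the largest difference of any member but did not pass. At ILMN_1257020 the 6 AAV-Cre arrays had a lowest log2 signal of 8.10, a median of 9.16 and a highest of 9.94, and the 6 AAV-GFP arrays 9.87, 10.25 and 11.16. AAV-Cre replicate 3 was at the level of the dimmest AAV-GFP arrays, replicates 4 and 6, and the other 5 AAV-Cre arrays were below every AAV-GFP array, so the groups barely overlapped. AAV-Cre replicate 4 was not detected. Averages were 9.11 ± 0.74 in AAV-Cre and 10.40 ± 0.54 in AAV-GFP (SD, n = 6 each), a difference of -1.29 (SE 0.325, 95% interval -1.99 to -0.60) or 2.45-fold. The limma adjusted p = 0.258 over all kept probes, and the exact permutation test of this single value gave p = 0.00649.

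Because the export keeps the background in the signal, a probe as dim as this one has its difference compressed. With the background removed by normexp the *Aldh1b1* difference was -1.99 (adjusted p = 0.440) on the log2 scale, and with single arrays left out it lay between -1.45 and -1.09 (adjusted p from 0.149 to 0.529). AAV-Cre replicate 3, which was lowest for *Aldh1a7* and *Aldh1a1*, was the highest AAV-Cre array for *Aldh1b1*.

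**Figure D2:**
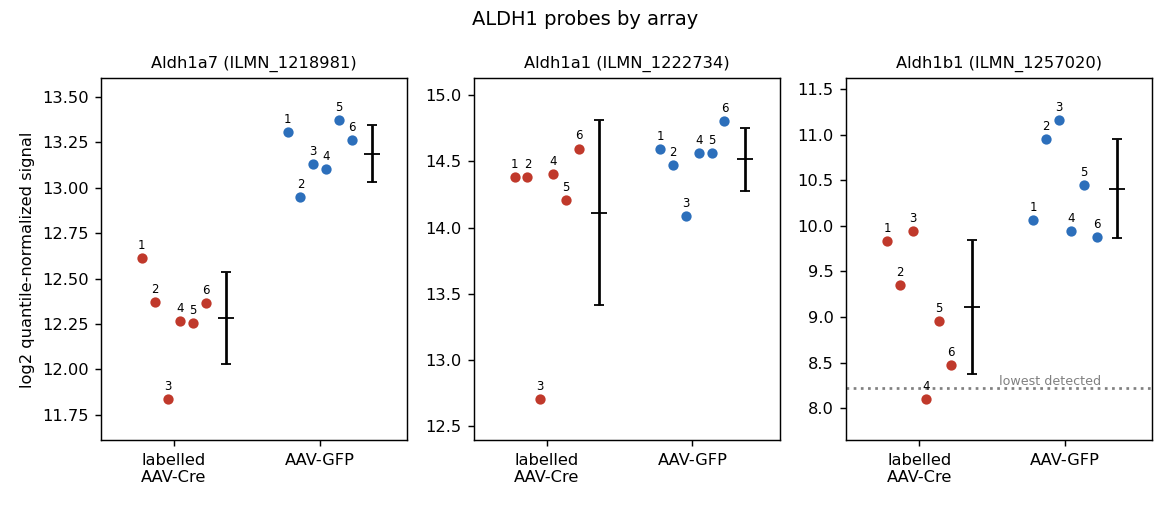
Log2 quantile-normalized signal (y axis) of *Aldh1a7*, *Aldh1a1* and *Aldh1b1* on each array (points, numbered by replicate), arrays labelled AAV-Cre left and AAV-GFP right, with the mean and SD of each group (n = 6) as a black bar; the dotted line is the mean lowest detected signal, 8.22. The groups are apart for *Aldh1a7*, AAV-Cre replicate 3 lies far below the other arrays for *Aldh1a1* at 12.71, and *Aldh1b1* spreads from 8.10 to 11.16.

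**Figure D3:**
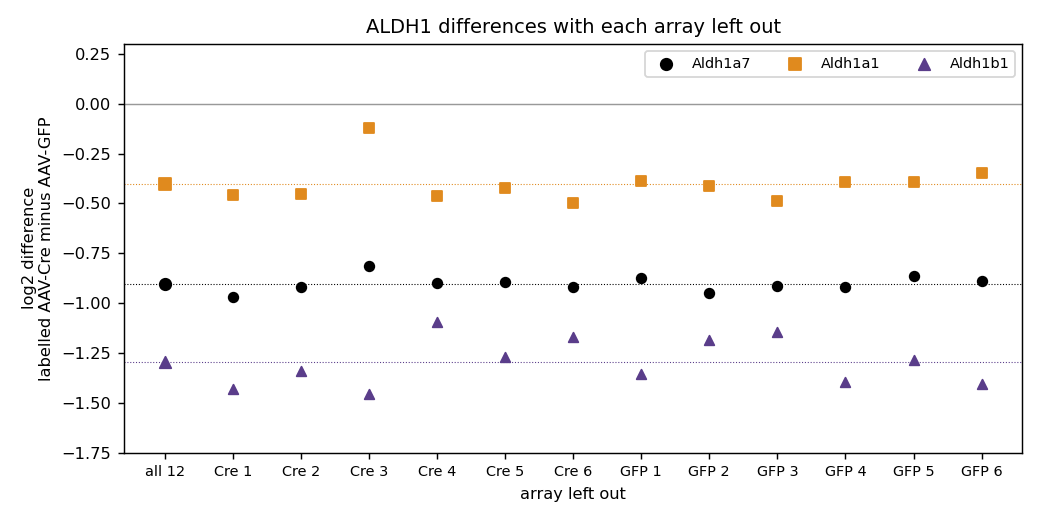
Log2 difference, arrays labelled AAV-Cre minus AAV-GFP (y axis), for *Aldh1a7*, *Aldh1a1* and *Aldh1b1* with all 12 arrays and with each array left out in turn (x axis); dotted lines mark the values with all arrays. *Aldh1a7* stays between -0.97 and -0.81, while *Aldh1a1* moves to -0.12 without AAV-Cre replicate 3.

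The remaining members act on amino acid, folate and lipid intermediates, and none of their probes was called. *Aldh1l1* encodes cytosolic formyltetrahydrofolate dehydrogenase, which removes formyl groups from the folate pool. At ILMN_3100276 it averaged 13.46 ± 0.17 in AAV-Cre and 13.43 ± 0.26 in AAV-GFP, a difference of 0.03 (95% interval -0.22 to 0.28). At ILMN_3027287 the means were 8.82 ± 0.25 in AAV-Cre and 8.86 ± 0.16 in AAV-GFP, a difference of -0.04 (95% interval -0.28 to 0.21). AAV-Cre replicate 3 was the lowest AAV-Cre array at both probes, with 13.13 and 8.37, and without it the differences were 0.10 at ILMN_3100276 and 0.05 at ILMN_3027287.

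*Aldh3a2* encodes the fatty aldehyde dehydrogenase of the endoplasmic reticulum, the enzyme that is deficient in Sjögren-Larsson syndrome, and it was the member whose arrays varied most within the AAV-GFP group. At ILMN_2925350 the AAV-Cre arrays had a lowest value of 14.26, a median of 14.93 and a highest of 15.63, and the AAV-GFP arrays 14.03, 14.71 and 15.50. AAV-GFP replicates 1, 2 and 3 (14.39, 14.03 and 14.03) lay apart from replicates 4, 5 and 6 (15.37, 15.03 and 15.50), with 4 of the 6 AAV-Cre arrays between them. The second bright probe, ILMN_2456946, split the same AAV-GFP arrays, with 14.09, 13.97 and 13.95 against 14.90, 14.67 and 14.93. Nothing in the labels divides these 6 samples. The differences were 0.17 (95% interval -0.44 to 0.79, exact permutation p = 0.602) and 0.22 (95% interval -0.21 to 0.66, exact permutation p = 0.338).

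*Aldh4a1* encodes the mitochondrial enzyme that makes glutamate in the last step of proline breakdown. At ILMN_2874554 the values ran from 15.09 through a median of 15.33 to 15.79 in AAV-Cre, and from 15.07 through 15.37 to 15.68 in AAV-GFP. These ranges nearly coincided, with a difference of 0.01 (95% interval -0.26 to 0.27, and -0.02 without AAV-Cre replicate 3). ILMN_1244242 differed by 0.07 (12.34 ± 0.16 in AAV-Cre and 12.27 ± 0.12 in AAV-GFP, 95% interval -0.11 to 0.25). *Aldh6a1*, the methylmalonate semialdehyde dehydrogenase of valine and thymine breakdown, averaged 13.75 ± 0.22 in AAV-Cre and 13.82 ± 0.21 in AAV-GFP at ILMN_1258158 (difference -0.07, 95% interval -0.32 to 0.18). Replicate 6 was the highest array of its group for both bright *Aldh3a2* probes, ILMN_2874554 of *Aldh4a1* and *Aldh6a1*, in AAV-Cre and in AAV-GFP. The labels do not say whether a shared replicate number ties samples of the 2 groups together.

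**Figure D4:**
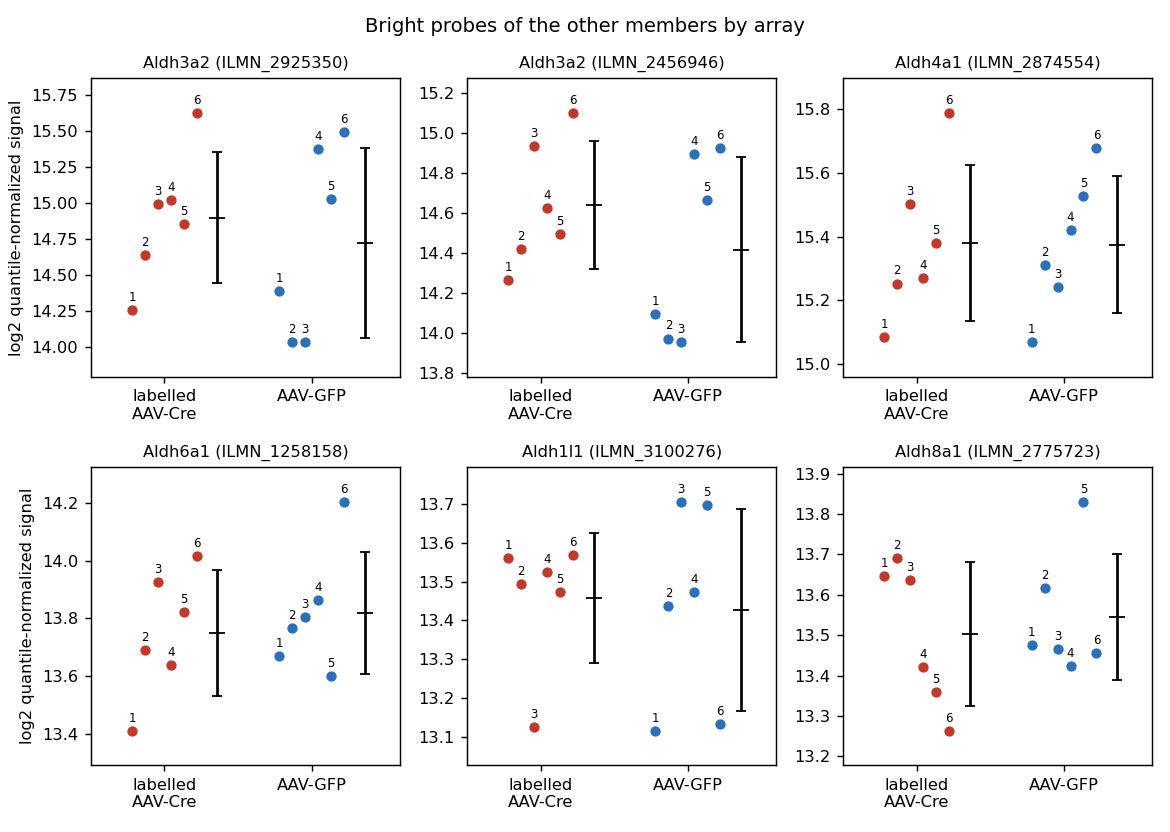
Log2 quantile-normalized signal (y axis) of 6 probes of *Aldh3a2*, *Aldh4a1*, *Aldh6a1*, *Aldh1l1* and *Aldh8a1* on each array (points, numbered by replicate), arrays labelled AAV-Cre left and AAV-GFP right, with the mean and SD of each group (n = 6) as a black bar. The groups overlap in every panel, and at *Aldh3a2* the AAV-GFP arrays split into replicates 1 to 3 and 4 to 6.

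*Aldh8a1* encodes the enzyme that oxidises aminomuconate semialdehyde in the kynurenine route of tryptophan breakdown. Its brightest probe, ILMN_2775723, averaged 13.50 ± 0.18 in AAV-Cre and 13.55 ± 0.16 in AAV-GFP (difference -0.04, 95% interval -0.25 to 0.16). ILMN_2771641 averaged 10.47 ± 0.10 in AAV-Cre and 10.58 ± 0.28 in AAV-GFP (difference -0.11, 95% interval -0.35 to 0.14), where AAV-GFP replicate 5 stood high at 11.12. The third probe, ILMN_1226247, was close to background and differed by 0.09 (95% interval -0.12 to 0.29). *Aldh7a1*, which acts in lysine breakdown and on betaine aldehyde, was measured only near background (ILMN_2590532, 8.02 ± 0.15 in AAV-Cre and 8.11 ± 0.13 in AAV-GFP, detected on 1 array of each group), as was ILMN_1258695 of *Aldh3a2* (8.04 ± 0.08 in AAV-Cre and 8.08 ± 0.17 in AAV-GFP). At these 2 probes a fall could not be seen at this signal.

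Further family genes with a kept probe were *Aldh16a1*, *Aldh18a1*, *Aldh1a2*, *Aldh3b1* and *Aldh5a1*, with 9 probes. Of these 0 were called (0.165% of all kept probes were) and 0 had an unadjusted p under 0.05 (5.05%). With so few probes, counts of 0 say little beside these shares. *Aldh5a1*, the succinate semialdehyde dehydrogenase of GABA breakdown, was the brightest, with differences of 0.02 (ILMN_2664660), -0.01 (ILMN_2490536) and, at background, -0.14 (ILMN_1234289). *Aldh1a2*, another retinal-oxidising enzyme, was near background, detected on 4 arrays of each group, and differed by 0.04 (95% interval -0.14 to 0.21). *Aldh3b1*, which oxidises lipid aldehydes, differed by -0.16 at ILMN_2645793 (95% interval -0.47 to 0.14) and, at background, by -0.02 and 0.03 at ILMN_2953513 and ILMN_2953515. At probes this close to background a fall could not be seen. *Aldh16a1* differed by 0.06, and *Aldh18a1*, an enzyme of proline synthesis, by -0.08 at background.

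Enzymes around the members were described through lists in which each gene stood for its brightest probe. Counts above and below 0 include genes near background. None of the listed genes was called, where 0.212% of named genes were (0.175% lower and 0.0369% higher), and the median over all named genes was 0.00. Of 7 measured genes from ethanol to acetate, 1 was above 0 and 6 below (median -0.30). Their lowest p-values belonged to the alcohol dehydrogenases *Adh1*, at 15.58 ± 0.33 in AAV-Cre and 16.00 ± 0.07 in AAV-GFP (difference -0.42, limma adjusted p = 0.508), and *Adh4* (-0.30, adjusted p = 0.797). For *Adh1* the groups did not overlap, but its AAV-GFP signal lay close to 16.10, the highest level of any kept probe, where the scale is compressed and the size of the difference is uncertain. The broader list of alcohol and retinol dehydrogenases, which holds both, had 5 of 17 above 0 (median -0.04), and 7 of 17 without AAV-Cre replicate 3.

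Among 16 retinoid binding and response genes 9 were above 0 (median 0.02). *Bco1*, which cleaves beta-carotene to retinal, came closest to the threshold, at 8.98 ± 0.14 in AAV-Cre and 8.55 ± 0.16 in AAV-GFP (difference 0.43, limma adjusted p = 0.0970), with groups that did not overlap. The retinoic acid receptor *Rarg*, detected on 4 AAV-Cre arrays and 1 AAV-GFP array, differed by 0.08 near background. Of 16 other aldehyde reductases and oxidases 11 were below 0 (median -0.06), 8 of 16 without AAV-Cre replicate 3. The aldehyde oxidase *Aox3* differed by -0.68 (adjusted p = 0.984), and by -0.37 without that array. *Akr1b10*, detected on 4 AAV-Cre arrays and 2 AAV-GFP arrays, differed by 0.21 near background.

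Genes of the pathways that supply substrates to the mitochondrial members were likewise not called. In valine and thymine breakdown 8 of 15 were above 0 (median 0.02), with *Bckdhb*, a subunit of the branched-chain ketoacid dehydrogenase, at 0.46 (adjusted p = 0.464) and its kinase *Bckdk* at 0.21. In proline and hydroxyproline breakdown 2 of 8 were above 0 (median -0.03), with *Got2* at -0.38 and *Grhpr* at -0.10 (-0.27 and -0.04 without AAV-Cre replicate 3). In lysine, choline and betaine metabolism 5 of 12 were above 0 (median -0.05), with *Aass* at 0.24. *Bhmt*, which uses betaine to methylate homocysteine, had 11.56 ± 0.41 in AAV-Cre and 12.50 ± 0.27 in AAV-GFP (difference -0.94, limma adjusted p = 0.0613), and its groups overlapped. With single arrays left out its limma adjusted p lay between 0.0127 (without AAV-Cre replicate 2) and 0.174, with a call in 1 of 12 fits. Under the other processing settings it lay between 0.0547 and 0.418.

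In the tryptophan and kynurenine list 4 of 11 were above 0 (median -0.01), 7 of 11 without AAV-Cre replicate 3, with *Kynu* at -0.26 and *Haao* at -0.18. The folate list had 12 of 19 above 0 (median 0.06), and 10 of 19 without AAV-Cre replicate 3 (median 0.03), with *Tyms* at 0.12 and *Fpgs* at 0.18. Of 13 sources of fatty aldehydes for *Aldh3a2* 5 were above 0 (median -0.05), and the fatty acid hydroxylase *Cyp4a12b* had the largest difference of the listed genes, at 11.05 ± 1.90 in AAV-Cre and 14.12 ± 0.62 in AAV-GFP (-3.06, limma adjusted p = 0.179; -2.46 without AAV-Cre replicate 3), while *Cyp4f14* differed by 0.23. Genes of the pericentral and periportal zones had 4 of 11 and 6 of 11 above 0 (medians -0.02 and 0.13).

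The 5 named genes whose signal followed *Aldh1a7* most closely over the 12 arrays were *Nqo2* (Pearson r = 0.945), *Cyp2a12* (0.923), *Atg16l2* (0.910), *Tmem86b* (0.909) and *Mttp* (0.903). This is a description, since all 12 points share the group difference and the arrays. After each group was centred on its mean the same r values were 0.582, 0.454, 0.754, 0.542 and 0.799. All 5 had negative differences, with *Nqo2*, a quinone reductase, at -0.63 (limma adjusted p = 0.00242), *Cyp2a12* at -0.39 (0.0204) and *Tmem86b* at -0.71 (0.0237) called, and *Atg16l2* at -0.71 (0.143) and *Mttp*, which loads lipid onto apolipoprotein B, at -0.40 (0.276) not called. *Nqo2* stayed called whichever of the 12 arrays was left out, but not with median scaling (adjusted p = 0.187). *Cyp2a12* and *Tmem86b* were each called in 5 of these 12 fits, with adjusted p up to 0.0666 and 0.0762, and reached 0.605 and 0.348 with median scaling.

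Markers of other liver cells were present and 0 of them were called, where 0.212% of named genes were. The brightest were *Alas2* of erythroid cells (12.04 ± 1.19 in AAV-Cre and 12.90 ± 0.16 in AAV-GFP), *Clec4g* of sinusoidal endothelium (12.14 ± 0.82 in AAV-Cre and 12.18 ± 0.75 in AAV-GFP), *Sox9* of bile ducts (11.22 ± 0.60 in AAV-Cre and 10.73 ± 0.28 in AAV-GFP) and *Dcn* of fibroblasts (11.05 ± 0.84 in AAV-Cre and 11.17 ± 0.74 in AAV-GFP). *Reln*, a stellate cell marker, was 10.03 ± 0.50 in AAV-Cre and 10.91 ± 0.29 in AAV-GFP (difference -0.88, limma adjusted p = 0.205, exact permutation p = 0.00649). The other measured stellate and fibroblast markers differed by -0.12 (*Dcn*), -0.09 (*Des*), -0.01 (*Acta2*) and 0.01 (*Lrat*). *Alas2* differed by -0.86 (limma adjusted p = 1.00, exact permutation p = 0.00866), and by -0.38 without AAV-Cre replicate 3, where it was 9.65. The erythroid marker *Hba-a1* went the other way, at 10.10 ± 1.29 in AAV-Cre and 9.12 ± 1.08 in AAV-GFP. Its difference was 0.97 (exact permutation p = 0.208), and 0.46 without AAV-Cre replicate 3. Among the 8 endothelial markers 2 were above 0 and 6 below (median -0.01). *Stab2* had the largest difference of them, 0.47 (limma adjusted p = 0.986, exact permutation p = 0.106), and 0.38 without AAV-Cre replicate 3. The summed signal of 8 of 8 endothelial markers was 5358 to 12301 in AAV-Cre and 4559 to 9864 in AAV-GFP, with *Pecam1* detected on 3 AAV-Cre and 2 AAV-GFP arrays. That of 5 of 9 stellate and fibroblast markers was 2594 to 6989 in AAV-Cre and 3930 to 6512 in AAV-GFP, and that of 5 of 8 macrophage markers 1732 to 3625 in AAV-Cre and 1466 to 4112 in AAV-GFP. Erythroid and neutrophil markers (6 of 12 measured) summed to 6348 to 8746 in AAV-Cre and 7700 to 13732 in AAV-GFP, and bile duct markers (2 of 6) to 1536 to 3963 in AAV-Cre and 1559 to 2453 in AAV-GFP. *Lrat*, *Marco*, *Slc4a1*, *S100a9*, *Mpo* and *Krt7* were at or near background. The part of these cells in the *Aldh1a7* difference was not tested.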

How the data were processed

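Total RNA of 6 AAV-Cre and 6 AAV-GFP hepatocyte samples was profiled, 1 array each. The authors exported from the scanner software a deposited probe intensity (signal on a linear scale, background not subtracted) and a deposited detection p-value for 45281 probes. The second deposited table holds intensity values that the authors quantile-normalized and filtered on detection (19627 probes), and it served as an alternative. The sources used here give no versions of their software. The number of arrays limits the precision. Whether each sample is a separate animal is not in the labels, and the p-values therefore measure the spread between these samples, which may be technical.

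Signals were quantile-normalized between arrays and log2-transformed, and probes with a detection p-value of at most 0.05 on at least 1 array were kept (20561), both as in the methods. The groups were compared with limma 3.58.1 in R 4.3.3 (lmFit and eBayes, two-sided, Benjamini-Hochberg over all kept probes), where the methods used SAM, which was not run. Calls were counted at an adjusted p under 0.05 and under the 0.25 of the methods. Single probes also had an exact permutation test over arrays. The fit was tested on simulated data. Because the export keeps the background, folds of dim probes are compressed.

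Probes were named by the platform annotation, which covers those of the value table, of which 16568 had 1 symbol, 10 several and 3049 none. Kept probes that are not in the value table (934) have no symbol here. A member probe undetected on all arrays would therefore not be counted. Promoter windows are RefSeq's on GRCm38.p6, aligned pairwise with Biopython; the build of the array's probes was not used.

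The members, lists and tests were chosen with earlier results of these data known. Named were all member and other family probes, of each metabolic list the genes called or otherwise the 2 with the lowest p, and the 5 genes most like *Aldh1a7* by Pearson r. The alternatives tried were normexp background correction, median scaling, the value table, a block on the replicate number, detection on at least 6 arrays, no filter and each array left out. For list genes, marker genes and genes like *Aldh1a7* these were added after seeing the data, as was the comparison of *Aldh1a7* with *Aldh1a1*.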

Additional observations from a re-analysis of the deposited data

Results flagged for a closer look

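Single arrays that lay far from the other 5 of their group by Dixon's test were found in 9 of the 112 groups of values. The groups examined included sex-linked and cell marker genes chosen with these data known, so the count is not set against a chance rate. Among the members, *Aldh1a1* had 12.71 on AAV-Cre replicate 3, where the nearest array of the group had 14.21, and *Aldh1l1* (ILMN_3100276) had 13.13 on the same array, with the nearest at 13.47. *Aldh8a1* (ILMN_2771641) had 11.12 on AAV-GFP replicate 5, with the nearest at 10.58. Of the other genes, *Aldh3b1* (ILMN_2645793) had 8.83 on AAV-Cre replicate 1, with the nearest at 8.40, and *Grhpr*, which reduces glyoxylate, had 14.23 on AAV-Cre replicate 3, with the nearest at 14.53. That array also had *Eif2s3y* at 7.75 (nearest 11.53), *Xist* at 13.31 (nearest 7.89) and *Alas2* at 9.65 (nearest 12.16), so 6 of the 9 values came from it. *Clec4g* had 10.70 on AAV-GFP replicate 2, with the nearest at 12.15.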

How the results depend on the processing

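Over 18 alternatives *Aldh1a7* kept its direction (-0.97 to -0.81) and stayed called in all but median scaling (adjusted p = 0.0611), where 0 member probes were called. With all arrays or 1 left out the count was 1. Of 267 values of member probes under the alternatives, 252 kept direction and side of the threshold, 14 changed sign and 1, that of *Aldh1a7*, lost its call. Over all kept probes 34 were called, against 20 with the replicate block, 18 with normexp, 10 with median scaling and 19 to 42 with 1 array left out. Median scaling shifted the median of all probes by 0.03 and turned ILMN_2775723 of *Aldh8a1* to 0.0184 and ILMN_2490536 of *Aldh5a1* to 0.0602. The cause was not tested.

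Signs that turned with 1 array left out belonged to differences near 0. Their lowest and highest values were -0.0924 and 0.0531 (*Aldh1l1*, ILMN_3027287), -0.0322 and 0.0978 (*Aldh1l1*, ILMN_3100276), -0.0761 and 0.0654 (*Aldh4a1*, ILMN_2874554), -0.123 and 0.00881 (*Aldh6a1*), -0.150 and 0.000187 (*Aldh8a1*, ILMN_2771641), -0.0797 and 0.0144 (*Aldh8a1*, ILMN_2775723), -0.0122 and 0.0691 (*Aldh1a2*), -0.0583 and 0.0150 (*Aldh3b1*, ILMN_2953513), -0.0293 and 0.0567 (*Aldh3b1*, ILMN_2953515), -0.0673 and 0.0320 (*Aldh5a1*, ILMN_2490536) and -0.0205 and 0.0604 (*Aldh5a1*, ILMN_2664660).

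Same-numbered samples of the 2 groups had deviations that correlated between -0.20 and 0.40. As not every pair was above 0.1 and the labels tie no samples together, the numbers were not taken as pairs, although 7 of 12 arrays correlated best with their own number, a hint of pairing from the data. With the replicate number as a block *Aldh1a7* had adjusted p = 0.0204 and *Aldh1b1* 0.0530.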
